A study of Mus musculus with 16 samples.

Results

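The comparison is between MCT4-KO and Control cells of a murine MLL-AF9 acute myeloid leukemia line kept at 2% oxygen. It takes 8 of the 16 poly(A)-selected RNA-seq libraries of the study, 4 labelled MCT4-KO and 4 labelled Control, chosen by their labels and not by any measured value. All 16 libraries came from cells grown in RPMI with FBS, IL-3 and SCF in which 4-OHT had switched on Cas9, the nuclease that cuts where its guide RNA directs it. The knockout cells carried a guide against MCT4 and the Control cells a non-targeting guide. The remaining 8 libraries are MCT4-KO and Control at 20% oxygen, 4 each, and serve here only to ask whether an effect seen at 2% oxygen differed at the higher level. The guide's position, the number of guides or clones and whether replicates were separate cultures are not stated in the labels, so every p-value measures the spread between libraries, which may be technical.

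MCT4, the product of Slc16a3, is a membrane carrier that moves lactate out of a cell together with a proton. Cells that rely on glycolysis use it to shed lactate and acid, and its gene is a well-known target of the hypoxia-inducible factors, which accumulate when oxygen is short. MCT4 reaches the cell surface with the help of basigin, the product of Bsg, and shares its task with MCT1, the product of Slc16a1. The comparison asks how the transcriptome of cells with the MCT4 guide differed from that of Control cells when oxygen was low. Loss of the carrier and any other difference between the 2 cell populations cannot be told apart here.

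The 8 libraries held 22902416 to 28871459 estimated counts, and 13774 of the 53801 listed genes passed the filter on low counts, holding 99.9% of all counts. Levels below are CPM, counts scaled to a common library size, after TMM normalisation, and a gene is called where edgeR's quasi-likelihood test gave a Benjamini-Hochberg adjusted p under 0.05 over all 13774 genes. The cells carried myeloid transcripts, as the label says: 13 of 14 myeloid markers exceeded 10 CPM, with Elane, neutrophil elastase, at 3714 CPM, while none of 5 B cell markers reached the filter. Control replicate 4 stood apart from the other 3 Control libraries, with a chi-square per gene of 8.21 to 12.2 against them where those 3 differed from each other by 2.51 to 3.29 and the MCT4-KO libraries by 1.75 to 2.74. Counts without this library are given where they moved a result by more than 1.5 times.

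Slc16a3 RNA was lower in every MCT4-KO library than in every Control library. The Control libraries held 789, 844, 810 and 804 CPM, and the MCT4-KO libraries 370, 369, 358 and 363 CPM. The difference was -1.15 ± 0.07 on the log2 scale (SE, adjusted p = 8.46e-10, edgeR), and the exact two-sided permutation test over the 8 libraries gave p = 0.0286, the smallest that 4 against 4 allows. The RNA was reduced but not absent. Cas9 commonly leaves small insertions or deletions, which need not remove a message, and counts over the whole gene do not measure the protein. In bulk RNA, here and below, fewer cells with a message and less of it per cell cannot be told apart. The gene lies on chromosome 11 at 120948480 to 120960868 on the + strand (mm10, GENCODE vM21). The RefSeq promoter table (GRCm38.p6) uses a start further inside that span. The 250 bases before the RefSeq start, chr11:120948817-120949066, thus lie within the GENCODE gene. They are shown here because the gene is both the target of the guide and an oxygen-responsive gene. Capitals mark the letters ACGTG or GCGTG on either strand, the core to which hypoxia-inducible factors bind.

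Slc16a3: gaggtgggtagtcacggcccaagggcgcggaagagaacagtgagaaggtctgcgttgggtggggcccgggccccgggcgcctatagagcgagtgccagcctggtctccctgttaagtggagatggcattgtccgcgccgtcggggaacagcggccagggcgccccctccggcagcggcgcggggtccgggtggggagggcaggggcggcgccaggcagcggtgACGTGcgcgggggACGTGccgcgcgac

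In the 8 libraries, 5295 of 13774 genes were called, 38.4% of those tested, of which 2671 (19.4% of all tested) were higher and 2624 (19.1%) lower in MCT4-KO cells. Most shifts were small: the median size among called genes was 0.242 on the log2 scale, and 168 of the higher and 331 of the lower genes changed by 1.5-fold or more. By the CPM of 4 against 4 libraries, 5098 of the 13774 genes tested had groups that did not overlap. TMM scaling put 50.4% of the called genes on the higher side and DESeq2's size factors 49.7%, while scaling to library size alone gave 3437 higher and 2007 lower genes (63.1% higher) with a shift of 0.04 in the median log2 fold change. The gene lists below are read against these shares of 19.4% higher and 19.1% lower and are described by counts and medians, with no test. The median over all genes tested was -0.00404.

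**Figure D1:**
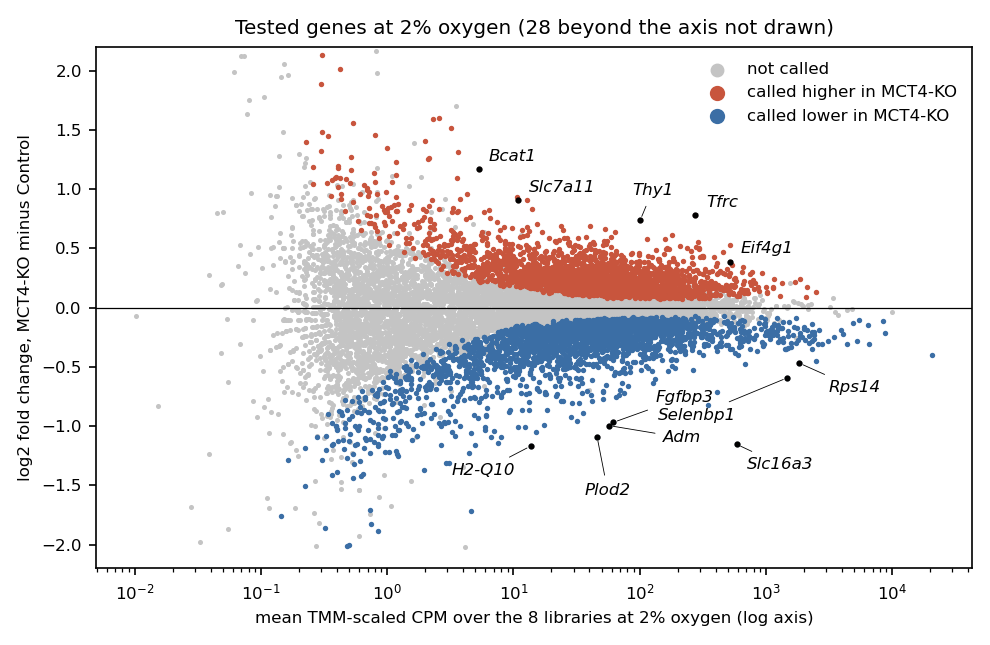
Log2 fold change at 2% oxygen (MCT4-KO minus Control) of each tested gene against its mean CPM over the 8 libraries on a log axis, with called genes in red (higher) and blue (lower), and named genes as black points. Most called genes lie within 1 log2 unit of 0, and Slc16a3, at a mean of 588 CPM, lies below the other genes of its level. The 28 genes beyond 2.2 log2 units are not drawn.

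Of the other monocarboxylate carriers and their chaperones, several rose. MCT1, the carrier encoded by Slc16a1 that moves lactate in either direction, stood at 80.4, 86.1, 82.4 and 87.4 CPM in Control libraries and at 118, 111, 112 and 117 CPM in MCT4-KO libraries (log2 change 0.45 ± 0.04 SE, adjusted p = 9.16e-08, edgeR). Slc16a6, a relative, went from 30.1 ± 2.3 to 45.5 ± 1.7 CPM (SD, n = 4 each; log2 change 0.59). Emb, embigin, a chaperone of monocarboxylate carriers, rose from 475 ± 15 to 611 ± 19 CPM, and Bsg fell from 1313 to 1165 CPM. The groups did not overlap for any of these 4 genes, which held for 5098 of all 13774 genes tested. Per kilobase of exon, Slc16a3 held 153 ± 4.41 CPM in Control and 68.6 ± 1.10 in MCT4-KO libraries, and Slc16a1 19.0 ± 0.725 and 25.9 ± 0.711, so that even after the fall the MCT4 message remained the more abundant of the pair. Of 11 carriers and chaperones tested, 5 were called higher and 3 lower.

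**Figure D2:**
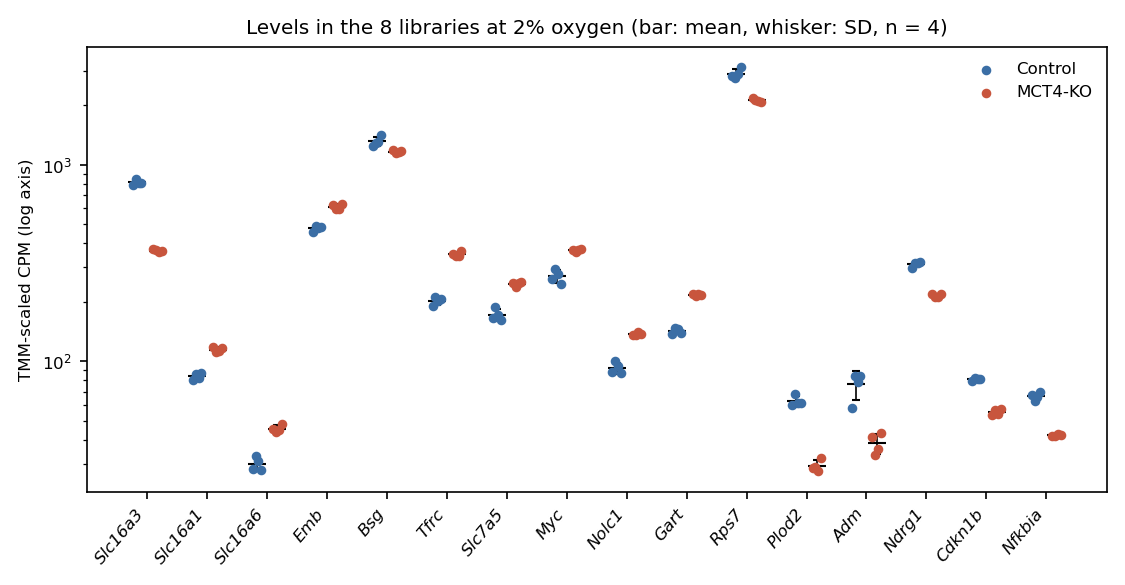
TMM-scaled CPM on a log axis of 16 genes in each of the 4 Control and 4 MCT4-KO libraries at 2% oxygen, with a bar at the mean and whiskers for the SD. Slc16a3 falls from about 812 to 365 CPM while Slc16a1, Slc16a6, Emb, Tfrc, Slc7a5, Myc, Nolc1 and Gart lie higher in all 4 MCT4-KO libraries, and Plod2, Adm, Ndrg1, Cdkn1b and Nfkbia lower.

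Proton handling moved in both directions. Of 17 pH regulators and proton sensors tested, 4 were higher and 5 lower, with 3 lower without MCT4-KO replicate 3. Car12, a carbonic anhydrase at the cell surface, rose from 7.40 to 9.76 CPM and Slc9a8, a sodium/proton exchanger of the Golgi, from 16.2 to 20.0 CPM. Car2, the cytosolic carbonic anhydrase, fell from 6.88 to 4.54 CPM, and Slc9a9, an endosomal exchanger, from 19.8 to 15.3 CPM.

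The 12 largest rises were taken among genes with a mean of at least 5 CPM over the 8 libraries and no overlap between groups. Bcat1, Greb1, Far2 and Lrp11 were under 5 CPM in Control libraries and passed this minimum through their MCT4-KO level. Bcat1, the cytosolic aminotransferase of branched-chain amino acids, had the largest of these rises. It stood at 2.68, 3.50, 3.21 and 3.66 CPM in Control libraries and at 7.90, 6.39, 7.53 and 7.52 CPM in MCT4-KO libraries (log2 change 1.17 ± 0.11 SE, adjusted p = 1.45e-07, edgeR). F7, coagulation factor VII, rose by 0.93, Thbs1, the matrix protein thrombospondin 1, by 0.91, and Slc7a11, the cystine and glutamate exchanger that feeds glutathione synthesis, by 0.90. Tfrc, the transferrin receptor that brings iron into the cell, was the most abundant of the 12: 191, 212, 202 and 209 CPM in Control libraries against 351, 342, 341 and 364 CPM in MCT4-KO libraries (log2 change 0.78 ± 0.04 SE, adjusted p = 3.62e-10, edgeR). Thy1, a surface glycoprotein, rose from 75.7 ± 3.9 to 126 ± 3.9 CPM. The others were Foxred2, Greb1, Far2, Lrp11, Mpeg1 and Abi2, with log2 changes of 0.70 to 0.83, and Far2 shares exon sequence with Ergic2, so its reads could belong to either.

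The 12 largest falls by the same rule held Slc16a3 itself, and Depp1, H2-Q6 and Htra3 among them passed the minimum through their Control level. Plod2, a lysyl hydroxylase that modifies collagen and is induced by low oxygen, went from 59.9, 68.3, 61.1 and 61.6 CPM to 28.8, 29.0, 27.8 and 32.2 CPM (log2 change -1.09 ± 0.05 SE, adjusted p = 4.97e-11, edgeR). Adm, which encodes the peptide hormone adrenomedullin, went from 58.1, 84.6, 78.1 and 84.7 CPM to 41.2, 33.4, 35.7 and 43.1 CPM (log2 change -0.995). Fgfbp3, a binding protein of fibroblast growth factors, fell from 82.1 to 42.0 CPM and Mettl18, a histidine methyltransferase of a ribosomal protein, from 41.8 to 21.5 CPM. Pde9a, a phosphodiesterase of cyclic GMP, fell by 1.05 on the log2 scale, and Depp1, a target of FOXO factors, by 1.09. H2-Q10 and H2-Q6, class I genes of the major histocompatibility complex with log2 changes of -1.17 and -1.03, have near-identical neighbours among which reads can be split, and their values are uncertain. The other falls were those of Htra3, Elfn2 and Glod5, with log2 changes of -1.01 to -0.99. Among the 300 most abundant genes, the leading rises were those of Eif4g1 (0.39), Emb (0.36), Hspa9 (0.35), Set (0.30) and Hspa5 (0.30), and the leading falls beside Slc16a3 those of Selenbp1 (-0.59), the pseudogene Rps6-ps4 (-0.48), Rps14 (-0.47) and Rps7 (-0.45).

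The list with the highest share of calls was ribosome biogenesis, the factors that transcribe, cut and fold ribosomal RNA in the nucleolus. Of 43 members, 39 were higher and 3 lower, with a median log2 change of 0.345. Nolc1, a nucleolar phosphoprotein, stood at 87.9, 100, 94.4 and 87.4 CPM in Control libraries and at 137, 135, 141 and 138 CPM in MCT4-KO libraries (log2 change 0.58 ± 0.06 SE, adjusted p = 3.98e-07, edgeR). Utp4 rose from 46.8 to 70.8 CPM, Noc4l from 33.1 to 48.0 CPM and Gar1, a protein of the particles that modify ribosomal RNA, from 37.0 to 52.0 CPM. Polr1b, a large subunit of RNA polymerase I, rose by 0.52 on the log2 scale. The 3 members called lower were Npm1 (-0.16), Polr1c (-0.16) and Wdr12 (-0.09). Over all alternatives the list held 39 or 40 higher members, and 1 lower member without Control replicate 4, MCT4-KO replicate 3 or MCT4-KO replicate 4. Myc, the transcription factor known to drive many of these genes, rose from 263, 295, 279 and 247 CPM to 368, 360, 366 and 371 CPM (log2 change 0.43, adjusted p = 5.76e-07, edgeR).

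The proteins of the finished cytosolic ribosome went the other way. Of 83 ribosomal protein genes tested, 70 were lower and 1, Rps27l, higher, with a median log2 change of -0.229. Rps7 went from 2820, 2753, 2872 and 3127 CPM to 2174, 2123, 2100 and 2088 CPM, a log2 change of -0.45 ± 0.06 (SE), and Rps4x from 2551 ± 102 to 2098 ± 43 CPM (SD, n = 4 each). As a share of all counts these genes took 10.7% to 11.8% in Control libraries and 9.62% to 9.81% in MCT4-KO libraries (11.2% ± 0.489 and 9.68% ± 0.0894, SD, n = 4 each, exact two-sided permutation p = 0.0286, the smallest possible). Control replicate 4 was the highest for Rps7 and for Rps14, at 2604 CPM where the other Control libraries held 1922 to 2045, and without it 72 members were lower. Ribosomal protein messages are short, and 65 of the 83 lie in the lowest quartile of protein-coding genes by exon length. That quartile as a whole leaned to the lower side: leaving out the ribosomal proteins, 449 of 2927 genes were higher and 660 lower with a median of -0.041, against 771 higher and 486 lower of 2991 and a median of 0.041 in the highest quartile. The part of message length in the fall was not tested. Ribosomal proteins also have many near-identical processed pseudogenes, among which estimated counts can be split. Of 496 tested processed pseudogenes of any kind, 10 were higher and 42 lower, both below the shares of all genes.

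Many genes that supply amino acids or load them onto tRNA were called higher. Of 20 cytosolic aminoacyl-tRNA synthetases, 16 were higher, 1, Qars, lower and 3 not called, with a median of 0.237. Tars, for threonine, went from 94.6, 103.2, 95.6 and 99.8 CPM to 136, 130, 133 and 132 CPM (log2 change 0.43 ± 0.04 SE, adjusted p = 7.75e-08, edgeR). Of 22 amino acid carriers, 12 were higher, 2, Slc38a6 and Slc38a9, lower and 8 not called, with a median of 0.223. Slc7a5, the main importer of large neutral amino acids such as leucine, rose from 173 ± 12 to 248 ± 7 CPM, its partner chain Slc3a2 from 206 to 247 CPM and Slc7a1, a carrier of arginine and lysine, from 131 to 179 CPM. Of 19 enzymes of branched-chain amino acids, 8 were higher and 4 lower, and beyond Bcat1 the members moved little or in either direction: Bckdha, of the complex that commits these amino acids to breakdown, fell from 162 to 133 CPM and Ppm1k, the phosphatase that activates that complex, from 10.8 to 7.13 CPM.

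Atf4 is the transcription factor that raises many of these genes when amino acids are short or proteins misfold. Its own message was not called (269, 329, 292 and 329 CPM in Control libraries and 334, 306, 332 and 335 CPM in MCT4-KO libraries), but it was called higher without Control replicate 2 (adjusted p = 0.0443, edgeR), without Control replicate 4 (0.0368) and with library size scaling (0.0285). Of 33 genes of its program, 15 were higher and 5 lower, with a median of 0.119. The members did not move as a block. Slc7a11, Chac1 (0.44), Cth (0.43), Aldh1l2 (0.44) and Ddit3 (0.39) rose, and Asns, asparagine synthetase, rose by 0.12 with groups that overlapped. Nupr1, a stress-induced chromatin protein, fell from 22.5 to 13.5 CPM, and Atf5 (-0.51), Atf3 (-0.35) and Vldlr (-0.22) fell too.

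The one-carbon and nucleotide pathways, which turn serine, folate and amino acids into building blocks for RNA and DNA, also leaned upward. Of 19 serine and folate enzymes, 13 were higher and 2, Mat2b and Mthfd1l, lower (median 0.169). Mat2a, which makes S-adenosylmethionine, rose from 50.2 ± 3.9 to 78.1 ± 2.7 CPM and Shmt1 from 44.0 to 64.0 CPM. Of 23 genes of purine and pyrimidine synthesis, 15 were higher and 1, Ctps2, lower (median 0.235). Gart, which catalyses several steps of purine synthesis, stood at 138, 147, 145 and 140 CPM in Control libraries and at 220, 214, 221 and 217 CPM in MCT4-KO libraries (log2 change 0.61 ± 0.04 SE, adjusted p = 8.46e-10, edgeR). Ppat rose by 0.38, Prps1 by 0.34 and Rrm2, a subunit of ribonucleotide reductase, by 0.40.

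**Figure D3:**
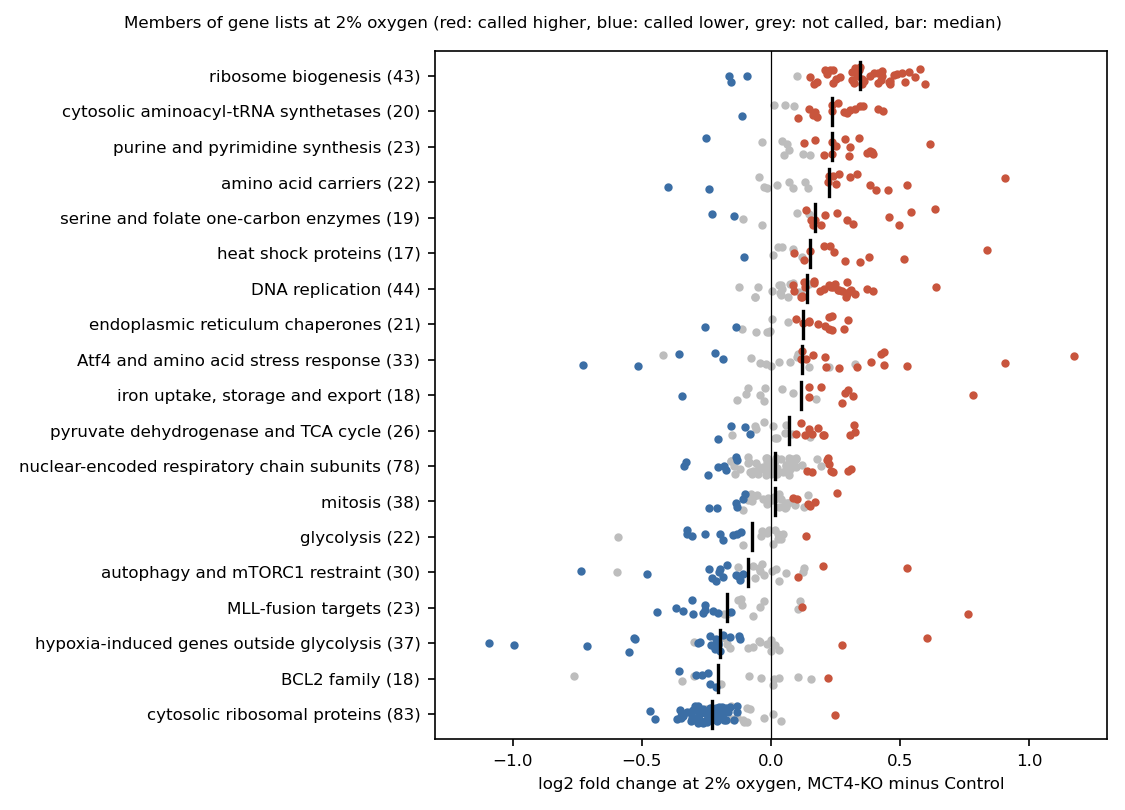
Log2 fold change at 2% oxygen of each tested member of 19 gene lists, with the number of members in brackets, called members in red (higher) or blue (lower), the others in grey and the median as a black bar. Ribosome biogenesis lies to the right (median 0.345) and cytosolic ribosomal proteins to the left (median -0.229), and lists such as mitosis centre on 0.

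Genes that low oxygen induces through hypoxia-inducible factors were lower more often than higher, though the cells of both groups were at 2% oxygen. Of 37 hypoxia-induced genes outside glycolysis, 21 were lower and 2, Cited2 and Ppfia4, higher, with a median of -0.196, and Ppfia4 lost its call in 10 of the alternatives. Beside Plod2 and Adm, Ndrg1 fell from 312 ± 10 to 216 ± 4.8 CPM, Ccng2 from 91.3 to 62.5 CPM and Ankrd37 by 0.71 on the log2 scale. Vegfa, the vascular growth factor, was not called, at 87.3 to 105 CPM in Control and 93.6 to 99.4 CPM in MCT4-KO libraries, but the Control libraries at 20% oxygen held more of it (185 CPM). Egln3 was not called either (-0.00). Bnip3, a mitophagy receptor, went from 1019 to 829 CPM with groups that did not overlap (-0.30, adjusted p = 0.156, edgeR), and it was called lower with no count filter (adjusted p = 0.0069) and with the 8 libraries alone (0.000446). Of 22 glycolysis genes, 9 were lower and 1, Hk3, higher, with a median of -0.073. Pgk1, phosphoglycerate kinase, went from 6946, 7107, 7144 and 7780 CPM to 6066, 5763, 5891 and 5742 CPM, Slc2a3, a glucose carrier, from 693 to 553 CPM, and Pfkm from 146 to 117 CPM. Ldha, the enzyme that makes lactate, was not called, at 4716 to 4932 CPM in Control and 4707 to 4866 CPM in MCT4-KO libraries. With scaling to library size 16 hypoxia-induced and 6 glycolysis genes were lower.

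Among the oxygen-sensing genes themselves, Hif1a, the alpha subunit of the main factor, rose from 281 ± 16 to 325 ± 8.2 CPM (log2 change 0.21, adjusted p = 8.79e-04, edgeR). Vhl, which targets that subunit for destruction, fell from 54.7 to 38.7 CPM, Egln1, a prolyl hydroxylase that marks it for Vhl, from 349 to 300.4 CPM, and Epas1 from 6.58 to 4.71 CPM. Hif1a protein was not measured. Txnip, an arrestin-like protein that curbs glucose uptake and whose gene follows glucose supply, fell from 259 to 197 CPM, with 246 to 278 CPM in Control and 188 to 203 CPM in MCT4-KO libraries.

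Promoters of the groups were read in the RefSeq table, which held 9920 of the 13774 tested genes. Matches were counted from 250 bases before the start to 50 after it, while the stretches printed hold only the 250 before. ACGTG or GCGTG occurred on either strand in 23 of 29 hypoxia-induced genes (79.3%), and in 63.1% of all tested genes with an entry. The letters occurred at least as often in lists that leaned upward, in 83.3% of ribosome biogenesis genes, 87.5% of serine and folate enzymes and 12 of 12 aminoacyl-tRNA synthetases. Of all genes called higher 69.6% held them, and of those called lower 62.0%. The letters TGATGNAA, the composite element that Atf4 binds with its partners, occurred in 9 of 29 genes of the Atf4 list (31.0%) and in 5 of 12 aminoacyl-tRNA synthetase genes (41.7%), against 2.36% of all. Of genes called higher 2.48% held them, of those called lower 1.93% and of those not called 2.46%. The median log2 change with and without a match was 0.117 and 0.125 in the Atf4 list, and 0.283 and 0.162 in the synthetases. CACGTG, the E-box of Myc and its relatives, which contains ACGTG, occurred in 7 of 36 ribosome biogenesis genes (19.4%) and in 10.4% of all, and more often in aminoacyl-tRNA synthetases (33.3%), lysosomal genes (30.8%) and nucleotide synthesis genes (5 of 20). A match describes letters, not binding. The promoters of Adm (chr7:110627407-110627656, + strand) and Ankrd37 (chr8:45999851-46000100, - strand) are shown for the genes that fell, with the same letters as above in capitals on either strand. Those of Slc7a11 (chr3:50443614-50443863, - strand) and Chac1 (chr2:119350992-119351241, + strand) are shown for the genes that rose, with TGATGNAA and its reverse complement in capitals, each 5′ to 3′ in the direction of its gene.

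Adm: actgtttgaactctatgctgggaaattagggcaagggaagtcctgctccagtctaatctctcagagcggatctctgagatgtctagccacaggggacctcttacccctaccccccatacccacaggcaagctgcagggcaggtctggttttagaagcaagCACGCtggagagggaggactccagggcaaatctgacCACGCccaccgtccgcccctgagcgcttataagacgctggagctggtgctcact
Ankrd37: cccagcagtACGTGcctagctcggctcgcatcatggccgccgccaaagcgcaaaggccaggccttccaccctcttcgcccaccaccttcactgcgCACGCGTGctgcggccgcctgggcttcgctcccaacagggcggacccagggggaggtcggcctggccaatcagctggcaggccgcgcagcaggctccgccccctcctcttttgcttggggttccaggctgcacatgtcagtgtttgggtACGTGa
Slc7a11: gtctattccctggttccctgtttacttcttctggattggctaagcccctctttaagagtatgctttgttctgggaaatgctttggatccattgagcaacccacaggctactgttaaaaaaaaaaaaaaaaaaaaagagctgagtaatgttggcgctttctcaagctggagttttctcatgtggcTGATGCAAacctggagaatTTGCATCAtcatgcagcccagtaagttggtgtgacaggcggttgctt
Chac1: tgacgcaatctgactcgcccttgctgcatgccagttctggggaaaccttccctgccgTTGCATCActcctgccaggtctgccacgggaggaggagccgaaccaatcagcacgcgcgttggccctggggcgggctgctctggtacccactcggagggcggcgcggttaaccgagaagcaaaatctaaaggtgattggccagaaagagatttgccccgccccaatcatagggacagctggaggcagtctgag

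Mitochondrial genes showed a mixed picture that moved with single libraries and the scaling. Of 78 nuclear-encoded respiratory chain subunits, 9 were higher and 8 lower (21.8% called, below the 38.4% of all genes), but without Control replicate 4 the counts were 26 and 6, and with scaling to library size 27 and 6. Of the 13 proteins encoded in mitochondrial DNA, 7 were higher and none lower, and leaving out Control replicate 3, Control replicate 4, MCT4-KO replicate 2 or MCT4-KO replicate 3 gave 2 or 3 higher. The share of counts from mitochondrially encoded genes was 0.298% ± 0.0442 in Control and 0.379% ± 0.0358 in MCT4-KO libraries (SD, n = 4 each), an exact two-sided permutation p of 0.0571. Control replicate 4 held 82.6 CPM of mt-Nd4, a subunit of respiratory complex I, where the other Control libraries held 136 to 165 CPM and the MCT4-KO libraries 166 to 205 CPM. Of 26 TCA cycle and pyruvate dehydrogenase genes, 11 were higher and 4 lower, with 2 lower without Control replicate 2, MCT4-KO replicate 3 or MCT4-KO replicate 4. Idh3a, of the NAD-dependent isocitrate dehydrogenase, rose from 98.7 to 123 CPM and Ogdh from 173 to 217 CPM. Of 78 mitochondrial ribosomal proteins, 22 were higher and 8 lower (38.5% called, near the 38.4% of all genes), with Mrps2 rising from 27.0 to 35.8 CPM. Of this list 4 were lower without Control replicate 4 and 5 without MCT4-KO replicate 4.

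Chaperones and iron genes leaned upward. Of 17 heat shock proteins, 11 were higher and 1, Hsp90ab1, lower (median 0.152). Hspa9, the Hsp70 of mitochondria, went from 548, 616, 570.1 and 599 CPM to 746, 720, 760 and 740 CPM (log2 change 0.35), Hspd1, the mitochondrial chaperonin, from 354 to 461 CPM and Hsph1 from 26.5 to 37.9 CPM. Of 21 chaperones and sensors of the endoplasmic reticulum, 12 were higher and 2 lower, with Hspa5, the main one, rising from 691 ± 38 to 850 ± 11 CPM and P4hb (-0.14) and Dnajb9 (-0.26) falling. Of 18 iron genes, 8 were higher and 1 lower, or 10 and 2 without Control replicate 4: beside Tfrc, the metal importers Slc39a14 (0.32) and Slc11a2 (0.19) and the endosomal ferrireductase Steap3 (0.30) rose, and Slc25a37, which carries iron into mitochondria, fell from 57.3 to 45.2 CPM. Heme synthesis genes moved little, with 2 of 12 higher and 1 lower, or 2 lower without Control replicate 4. Of 25 Nrf2 and glutathione genes, 12 were higher and 3 lower. G6pdx, which makes NADPH, rose from 160 to 211 CPM, Gpx1, a glutathione peroxidase, fell from 689 to 561 CPM, and Nfe2l2, Nrf2 itself, was not called (-0.00).

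Of 25 cholesterol genes 9 were higher and 4 lower (52.0% called), with Hsd17b7 rising from 30.2 to 42.1 CPM. Of 19 fatty acid genes 6 were higher and 2 lower. Lysosomal genes had 8 of 32 in each direction, or 13 higher and 5 lower with scaling to library size, 5 higher without Control replicate 3 and 5 lower without MCT4-KO replicate 1 or 4. Of 30 genes of autophagy and of the restraint of mTORC1, the kinase complex that couples nutrients to growth, 13 were lower and 3 higher. Tsc22d3, a glucocorticoid-induced regulator known as GILZ, went from 88.7, 81.6, 83.8 and 90.8 CPM to 56.1, 52.8, 51.2 and 47.0 CPM (log2 change -0.74 ± 0.05 SE, adjusted p = 9.92e-10, edgeR). Map1lc3b, which coats autophagosomes, fell from 159 to 136 CPM. The list had 8 lower members without MCT4-KO replicate 2, 3 or 4, and 7 with scaling to library size.

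Of 44 DNA replication genes, 28 were higher and none lower (median 0.139), and leaving out single libraries gave 21 to 27 higher. Mcm2, a subunit of the replicative helicase, rose from 231 ± 12 to 298 ± 4.5 CPM and Mcm3 from 292 to 362 CPM. Of 38 mitosis genes, 6 were higher and 6 lower, with 2 or 3 higher without Control replicate 3, Control replicate 4, MCT4-KO replicate 3 or MCT4-KO replicate 4 and 10 higher and 2 lower with scaling to library size. Among 21 genes that govern entry into S phase, 9 were higher and 3 lower, and the 3 lower ones were inhibitors of cyclin-dependent kinases: Cdkn1b, the p27 inhibitor, went from 79.2, 82.2, 81.1 and 81.4 CPM to 53.1, 56.3, 54.2 and 57.5 CPM (log2 change -0.55 ± 0.04 SE, adjusted p = 1.20e-08, edgeR), Cdkn2c fell from 150.4 to 118 CPM and Cdkn2d by 0.32 on the log2 scale. Ccne1, the G1 cyclin that activates Cdk2, rose by 0.50 on the log2 scale. Cell number and growth were not measured here.

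Of 24 p53 targets, 5 were higher and 2 lower, a share of 29.2% called that lies below the background of 38.4%. Ptp4a3, a phosphatase, rose from 40.8 to 64.8 CPM, while Cdkn1a (0.11, adjusted p = 0.0552, edgeR) and Mdm2 (-0.08), the best-known targets, were not called. Cdkn1a was called higher under 6 alternatives, among them library size scaling (adjusted p = 0.00862), limma-voom (0.0484) and leaving out Control replicate 2 (0.0226), Control replicate 4 (0.0208) or MCT4-KO replicate 2 (0.0417). In the BCL2 family, which sets the threshold for cell death, 6 of 18 were lower and 1, Bcl2l1, higher (38.9% called, near the background). Both survival genes and death genes fell: Mcl1, which protects, fell by 0.24 on the log2 scale and Bcl2l2, also protective, fell from 46.8 to 38.2 CPM, and Bmf, which promotes death, from 27.5 to 21.5 CPM.

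Targets of the MLL fusion were called lower more often than higher, and myeloid genes were called in both directions. Of 23 targets of MLL fusions, 11 were lower and 2, Satb1 and Myb, higher (median -0.171), and without Control replicate 4 the counts were 14 and 1. Meis1 went from 113, 110, 105 and 89.7 CPM to 81.7, 81.6, 83.1 and 83.3 CPM and Hoxa9, its partner in MLL leukemia, from 263 ± 5.35 to 236 ± 2.65 CPM (SD, n = 4 each). Hoxa10 fell from 410.4 to 343 CPM and Lmo2 from 195 to 151 CPM. Of 15 primary granule genes 5 were higher and 5 lower, with 3 higher without Control replicate 1, Control replicate 4 or MCT4-KO replicate 4. Mpo, myeloperoxidase, rose from 323, 362, 336 and 295 CPM to 458, 409, 470 and 439 CPM. Cst7 fell from 127 to 102 CPM, and Elane was not called (-0.06). Of 16 genes of secondary granules and mature neutrophils 2 were higher and 5 lower, with Itgam falling from 373 to 301 CPM and Padi4 from 82.2 to 67.6 CPM. Of 19 monocyte markers 7 were higher and 4 lower. Mpeg1 rose from 5.63 to 9.33 CPM, and Adgre1, the F4/80 antigen, fell from 174 to 128 CPM. Mmp8 and Csf1r rose by 1.27 and 1.14 on the log2 scale but from levels near 1 CPM. Among 16 growth factor receptors Il3ra, which binds the IL-3 in the medium, fell from 144 to 121 CPM and Kit, the receptor of SCF, was not called (0.09), though it was called higher without Control replicate 1 (adjusted p = 0.0389, edgeR), without MCT4-KO replicate 1 (0.0397) and with library size scaling (0.0181).

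At the cell surface, 7 of 22 adhesion genes were higher and 5 lower, led by Thbs1 and Thy1. Itgb7 fell from 292 to 232 CPM and Cd34 from 359 to 272 CPM. MHC class II genes had 3 of 11 lower (27.3% called, below the 38.4% of all genes), with H2-Ab1 going from 159 to 104 CPM. Of 17 chemokine and inflammatory genes 5 were lower and 1, Nlrp3, higher (35.3% called), or 6 lower and none higher without Control replicate 4. Nfkbia, the inhibitor and target of NF-kappaB, went from 67.2, 62.5, 65.7 and 69.6 CPM to 41.9, 41.9, 42.6 and 42.3 CPM (log2 change -0.65 ± 0.04 SE, adjusted p = 1.20e-09, edgeR). Of 24 interferon-stimulated genes 8 were lower and 2 higher (41.7% called), with 5 lower without MCT4-KO replicate 1. Of 22 immediate early genes 4 were lower and 3 higher (31.8% called). Of the markers of other cell types, Pecam1, listed for endothelium, was the most abundant, at 267 to 301 CPM in Control and 260.2 to 262.9 CPM in MCT4-KO libraries, and was lower, while Cdh5, Kdr and Tek were under the filter. The mast cell and basophil markers summed to 59.2 to 65.7 CPM in Control and 44.0 to 50.8 CPM in MCT4-KO libraries, nearly all from Mcpt8, with Fcer1a, Tpsb2 and Gzmb under the filter, and Lck was the only T cell marker of 5 that was tested. The erythroid markers summed to 2.72 to 4.06 CPM in Control and 2.68 to 3.11 CPM in MCT4-KO libraries, and none of the 3 tested was called. Their part in the results was not tested.

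Of 351 lincRNA genes 20 were higher and 65 lower, and of 288 antisense genes 10 and 31, so that the shares called in either direction lay below those of all genes (19.4% and 19.1%). Of 19 host genes of small nucleolar RNAs and long nuclear RNAs, 5 were lower and 2 higher, or 1 higher without Control replicate 4. The share called, 36.8%, was near the 38.4% of all genes, and 12 members were not called. Snhg1 (26.3 to 16.7 CPM), Zfas1 (40.0 to 26.4 CPM) and Snhg12 (12.9 to 9.08 CPM) were among the lower ones. Neat1, the scaffold of nuclear paraspeckles, rose from 21.0, 22.1, 23.8 and 26.8 CPM to 30.8, 28.3, 31.5 and 33.0 CPM. The strand setting is not stated, so reads where genes overlap cannot be told apart, which holds for antisense genes and, among the genes named here, for Slc16a6, Far2, Shmt1, Mat2a, Gart, Ppat, Hspd1, G6pdx, Map1lc3b, Bckdha, Csf1r, Zfas1 and others.

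Near Slc16a3, with predicted genes and clone names left out, 14 other genes with exons within 250 kb were tested. Of these, 5 were lower and 2 higher, against 19.1% and 19.4% of all genes tested. The nearest, Csnk1d, a casein kinase whose gene lies next to Slc16a3, fell from 227 to 205 CPM (log2 change -0.15) and Ccdc57, on its other side, by 0.41. Fasn, fatty acid synthase, rose by 0.22 but lost its call when single libraries were left out. None came near the change of Slc16a3. By chromosome, the genes of chromosome 12 stood out, with 50 of 523 higher and 158 lower and a median of -0.085, and their median at 20% oxygen was -0.107. Genes named above that lie on it include Rps7, Nfkbia, Slc38a6 and Dnajb9, which were lower, and Hif1a, Rrm2 and Greb1, which were higher. Chromosome 16 leaned the other way at 2% oxygen, with 110 of 403 higher and 55 lower (median 0.053, and -0.002 at 20% oxygen). Medians of the other numbered chromosomes and X lay between -0.048 and 0.034.

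At 20% oxygen, where the groups were other libraries, 1344 of 13774 genes (9.76%) were called. Of these, 747 were called at 2% oxygen too, 14.1% of the 2% calls and 55.6% of the 20% calls, 576 in the same direction and 171 in the opposite one. The difference between the effects at the 2 oxygen levels, tested as an interaction, was called for 3155 genes (22.9%), of which 2626 were also called at 2% oxygen. Slc16a3 was not among them: its change was -1.39 at 20% oxygen, from 210 to 79.9 CPM, and the interaction was 0.24 (adjusted p = 0.104, edgeR). Plod2 also fell to a like extent at 20% oxygen (-1.14), as did Txnip (-0.37), and Thy1 (0.66) and F7 (0.79) rose there.

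The knockout effect on RNA differed between oxygen levels for many genes of ribosome biogenesis, tRNA charging and nucleotide synthesis. The interaction was called for 38 of 43 ribosome biogenesis genes, whose median at 20% oxygen was -0.055, for 14 of 20 aminoacyl-tRNA synthetases (-0.01 at 20%) and for 14 of 23 nucleotide synthesis genes (0.052), against 22.9% of all genes. Slc16a1 changed by -0.10 at 20% oxygen (interaction 0.55, adjusted p = 3.28e-06, edgeR), Tfrc by -0.07 (0.85), Myc by 0.01 (0.42) and Emb by -0.00 (0.36). Replication genes had 19 of 44 higher at 20% oxygen and the interaction in 12. Among 37 hypoxia-induced genes, 15 were lower and 1 higher at 20% oxygen, and the interaction was called for 10. Of all 13774 genes, 683 were higher and 661 lower at 20% oxygen. The interaction shares of the replication and hypoxia-induced lists lay not far above the 22.9% of all genes. The largest interactions were taken among genes with a mean of 5 CPM or more over the 8 libraries at 2% oxygen. They were Stc1, Basp1, Thbs1 and Neat1 on the positive side and Vit, Rufy4, Adgrd1 and Igsf6 on the negative side. Stc1, the hormone stanniocalcin 1, fell at both levels, by 0.53 at 2% and by 1.88 at 20% oxygen, where it went from 1.05 ± 0.67 to 0.293 ± 0.149 CPM (SD, n = 4 each), and its call at 2% oxygen was lost with DESeq2's Wald test (adjusted p = 0.164). Basp1 (1.22 CPM in Control), Vit (1.11), Rufy4 (0.232) and Adgrd1 (1.85) were also low at 20% oxygen. Adgrd1, an adhesion receptor, and Igsf6, an immunoglobulin-like surface protein, fell at 2% oxygen (-0.38 and -0.48) and rose at 20% oxygen (0.87 and 0.66). For Adgrd1 the rise at 20% oxygen was from 1.85 to 3.36 CPM, and for Igsf6 from 5.30 to 8.41 CPM.

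**Figure D4:**
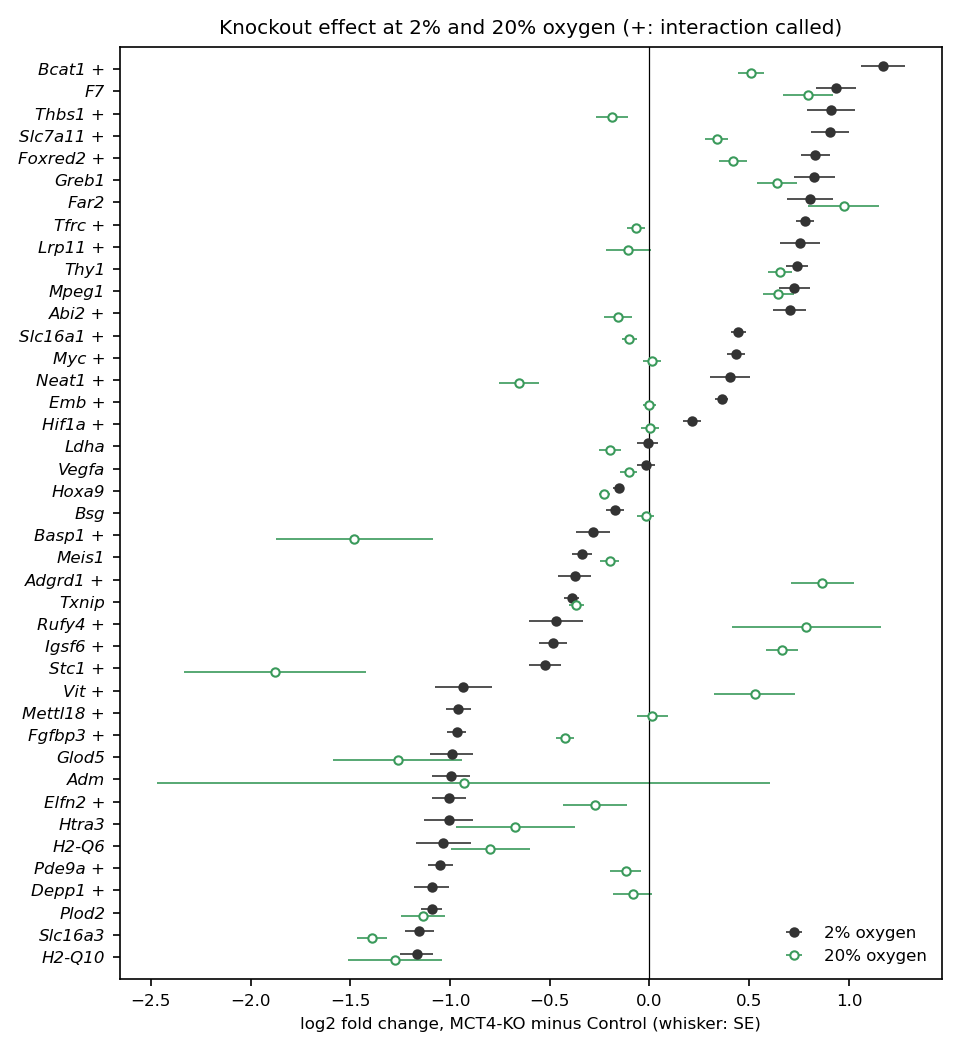
Log2 fold change (MCT4-KO minus Control) with its SE for 41 named genes at 2% oxygen (filled) and at 20% oxygen (open), with a plus where the interaction was called. Slc16a3, Plod2 and Thy1 lie together at both oxygen levels, while Tfrc, Slc16a1, Mettl18 and Pde9a lie near 0 at 20% oxygen.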

How the data were processed

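Poly(A) RNA of 16 libraries (4 groups of 4) was sequenced. The submitters' processing notes name HISAT2 and RSEM, with mm10 as the build. Tool versions, roles and the strand setting are not stated there. The authors deposited a table of expected counts per Ensembl gene, of which 10.1% of values were not whole, and these were rounded. Genes were matched to GENCODE vM21 (53706 of 53801).

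Counts were filtered by edgeR's filterByExpr, scaled by TMM and fitted with group means over all 16 libraries (residual degrees of freedom 12, a coefficient of biological variation of 4.61%), because the groups then share an estimate of the spread. Tests were glmQLFTest with Benjamini-Hochberg adjustment (edgeR 4.0.16, limma 3.58.1, DESeq2 1.42.0, R 4.3.3, Python 3.11.15, matplotlib 3.10.9). SEs are the log2 change over the root of F. Single values were compared by exact two-sided permutation. The procedure was tested on simulated data. Depth was 21192179 to 28871459 counts, and 3 counts, the floor for a gene at 0, equal 0.104 to 0.142 CPM per library.

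Named genes were 11 fixed ones, the 12 largest rises and 12 largest falls of at least 5 CPM without overlap between groups, the 5 largest of each direction among the 300 most abundant, the 4 largest interactions of each sign, genes within 250 kb of Slc16a3 and the called members of 43 lists with the smallest adjusted p. Further list members were named after their values were seen. The comparison and the lists were chosen with earlier results of these data known. Same-numbered libraries of the groups did not deviate together (correlations -0.118 to -0.0243), so numbers were not used to pair them. The alternatives were other scalings, filters and tests, a fold minimum, the 8 libraries alone, a replicate block and leaving out each library. Results on some genes are not reported here.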

Additional observations from a re-analysis of the deposited data

Results flagged for a closer look

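Of 90 groups of 4 libraries examined at 2% oxygen (41 named genes and 4 quantities per library), 3 had a library far from the others, where chance alone gives about 1 in 20. Control replicate 4 held 7.68 CPM of Thbs1 against 9.16 to 9.24 CPM in the other Control libraries, and the MCT4-KO libraries lay above all of them. Control replicate 1 held 81.5 CPM of Thy1 against 73.2 to 74.2 CPM. MCT4-KO replicate 3 held 10.4 CPM of Pde9a against 9.44 to 9.58 CPM.

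The knockout effect differed between oxygen levels for 23 of the 41 named genes by the interaction test (edgeR, adjusted over all genes), given here as the effect at 2% minus that at 20% oxygen on the log2 scale. It was more positive at 2% oxygen for the lactate carrier and chaperone genes Slc16a1 (0.55) and Emb (0.36), the regulators Hif1a (0.21) and Myc (0.42), the iron and amino acid genes Tfrc (0.85), Slc7a11 (0.57) and Bcat1 (0.66), and for Lrp11 (0.86), Abi2 (0.86), Foxred2 (0.41), Thbs1 (1.10), Neat1 (1.06), Basp1 (1.198) and Stc1 (1.35). It was more negative for Depp1 (-1.01), Pde9a (-0.93), Elfn2 (-0.73), Fgfbp3 (-0.54), Mettl18 (-0.97), Vit (-1.46), Rufy4 (-1.25), Adgrd1 (-1.24) and Igsf6 (-1.15).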

How the results depend on the processing

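The higher and lower calls stayed within 1.5 times of 2671 and 2624 under DESeq2's size factors (2642 and 2669), library size alone (3437 and 2007), no count filter (2566 and 2436), at least 1 CPM in 8 libraries (2577 and 2707), DESeq2's Wald test (2507 and 2494), limma-voom (2667 and 2619) and the 8 libraries alone (2685 and 2596). With a minimum change of 1.5-fold 168 and 331 remained, and 386 of the 3155 interactions. Leaving out single libraries gave 2321 to 2577 higher and 2252 to 2527 lower genes and 2635 to 3339 interactions. With the replicate number as a replicate block 2245 and 2194 genes were called, and 2114 interactions. Same-numbered libraries at 2% oxygen did not deviate together, but whether they were handled together is not stated in the labels. Fewer weak genes were called: 14% among the least abundant quartile against 53.3% of the most abundant, and the part of depth was not tested. Over 2640 values of 165 of the named genes none changed direction against a call, 67 lost a call and 14 gained it. Among these genes, 142 of 154 called ones kept their call throughout. Basp1 and Stc1 lost their call at 2% oxygen with DESeq2's Wald test (adjusted p = 0.357 and 0.164), as did Fasn there (0.0731) and under 6 other settings; Nlrp3, Ppfia4, Wdr12, Polr1c, mt-Nd4, Asns, Myb, Slc39a14 and Qars also lost theirs under some, and Atf4, Bnip3, Cdkn1a and Kit gained one under some. The cause was not tested.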
